A study of Mus musculus with 4 samples.

Results

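The 39 genes described here are interferon-stimulated genes, genes whose transcription is switched on when a cell receives an interferon. They were taken by symbol from a table of reads per gene of B16F10 cells, a melanoma line of C57BL/6 mice, and all 39 had a row among the 24527 gene symbols of the table. The study compared B16F10 cells from 4 sources, each with 1 library: 2D monoculture, 2D co-culture with NIH/3T3 fibroblasts (a mouse fibroblast line), spheroids made from both lines, and in vivo tumor. According to the methods, the cultures were made with Linterna B16F10 cells, a line with green fluorescent protein in the cytoplasm, and fluorescent cells were sorted from them, with dead cells left out by a stain. Tumors were raised by subcutaneous injection of B16F10 cells into both flanks of 1-year-old female C57BL/6 mice. For the expression comparison, the study names Linterna cells sorted from tumors that this line had formed. The labels and methods name no deleted gene, drug or added interferon in any group, and the host mice kept their own stroma and immune cells. The design text speaks of sorted tumor cells, but the library itself is named as snap frozen tumor. With 1 library per condition, no difference below has a replicate check, no test between conditions was made, and all 95% intervals are exact and cover counting error only.

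Cells make type I interferons after sensing foreign or misplaced nucleic acid, and the interferons bind a receptor of the subunits IFNAR1 and IFNAR2 that acts through the kinases JAK1 and TYK2. Transcription factors, STAT2 and IRF9 among them, then bind the interferon-stimulated response element (ISRE) in promoters. Interferon gamma, made mainly by T and NK cells, acts through its own receptor, JAK1 and JAK2, and many of its target genes hold the gamma-activated site (GAS). The products block viruses, sense RNA and DNA, attack vacuoles that hold pathogens and also dampen the signal, and in melanoma the pathway is known for its part in the recognition of tumor cells by the immune system.

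The libraries held between 118896900 and 150028663 reads on genes, and the 3 reads that a count of 0 still allows were worth 0.0185 to 0.0262 CPM (reads on a gene, scaled to a total that is the same for each library). Levels below are CPM scaled with TMM factors, which align the bulk of the genes of the 4 libraries. The B16F10 label was checked with 8 melanocyte markers. All 8 had at least 1 CPM in every library, and their sum lay between 10584 and 18873 CPM, led by Tyrp1, Dct and Pmel, which act in pigment formation. All 39 interferon-stimulated genes averaged 1 CPM or more over the libraries, as did 12728 genes in all, but 8 of them (Zbp1, Oas2, Oasl2, Ifi44, Mx1, Gbp4, Gbp5 and Iigp1) were under 1 CPM in every culture and passed through the tumor alone.

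Promoter windows from 250 bases before to 50 bases after a transcription start were found for 28 of the 39 genes in a RefSeq table of build GRCm38.p6, and were searched on both strands for an ISRE core, GAAANNGAAA (TTTCNNTTTC on the other strand), and for GAS, TTCNNNGAA, which reads the same on both strands. An ISRE core was present in 17 of the 28 genes (60.7%), against 3.99% of the 27025 symbols of the RefSeq table, and a GAS in 9 (32.1%), against 9.55%. Both were present in 6 of the 28. The letters of a match describe the window and show no binding. Promoters of 6 members are printed because they carry the letter patterns through which the pathway is known to act and belong to genes that ran different courses across the libraries below. Each is written 5′ to 3′ on the strand of its gene, with motif letters in capitals. Isg15 (chr4:156200769-156201068, minus strand) held 3 overlapping ISRE cores that begin at positions -78, -72 and -66 from the start. Ifit1 (chr19:34640639-34640938, plus strand) held 2 ISRE cores, Ddx58 (chr4:40239776-40240075, minus strand) 1 that begins 2 bases past its start, and Bst2 (chr8:71537423-71537722, minus strand) 2 ISRE cores that overlap each other and a GAS. Gbp5 (chr3:142496684-142496983, plus strand) held 1 ISRE core and 2 GAS, and the first of the windows of Irf1 (chr11:53769764-53770063, plus strand) a GAS at -90 and no ISRE core.
Isg15: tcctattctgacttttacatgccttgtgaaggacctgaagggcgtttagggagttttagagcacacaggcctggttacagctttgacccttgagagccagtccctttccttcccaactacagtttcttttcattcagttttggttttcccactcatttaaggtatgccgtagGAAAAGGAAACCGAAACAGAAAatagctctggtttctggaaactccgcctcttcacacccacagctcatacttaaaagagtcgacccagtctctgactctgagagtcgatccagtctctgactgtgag
Ifit1: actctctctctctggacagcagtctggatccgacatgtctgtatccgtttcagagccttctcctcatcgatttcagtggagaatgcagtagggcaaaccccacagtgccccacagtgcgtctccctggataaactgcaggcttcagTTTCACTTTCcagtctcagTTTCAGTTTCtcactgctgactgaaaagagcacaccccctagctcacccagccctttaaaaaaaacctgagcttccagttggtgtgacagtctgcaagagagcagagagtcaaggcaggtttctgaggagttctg
Ddx58: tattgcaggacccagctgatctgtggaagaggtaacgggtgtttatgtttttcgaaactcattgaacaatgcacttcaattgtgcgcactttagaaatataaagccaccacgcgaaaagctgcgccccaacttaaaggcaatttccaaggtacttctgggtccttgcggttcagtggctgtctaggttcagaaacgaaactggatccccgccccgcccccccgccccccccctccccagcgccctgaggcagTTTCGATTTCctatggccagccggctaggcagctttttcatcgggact
Bst2: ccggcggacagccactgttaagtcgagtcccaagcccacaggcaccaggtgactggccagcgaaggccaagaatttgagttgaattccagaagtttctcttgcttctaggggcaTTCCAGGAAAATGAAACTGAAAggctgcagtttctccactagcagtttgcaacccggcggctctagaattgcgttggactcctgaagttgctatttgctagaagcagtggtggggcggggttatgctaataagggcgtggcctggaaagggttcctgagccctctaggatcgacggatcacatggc
Gbp5: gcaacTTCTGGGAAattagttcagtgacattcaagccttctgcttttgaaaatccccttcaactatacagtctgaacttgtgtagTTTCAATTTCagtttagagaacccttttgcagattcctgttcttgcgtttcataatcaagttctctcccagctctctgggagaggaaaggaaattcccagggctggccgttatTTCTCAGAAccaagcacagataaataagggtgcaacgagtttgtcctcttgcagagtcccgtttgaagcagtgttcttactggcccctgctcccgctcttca
Irf1: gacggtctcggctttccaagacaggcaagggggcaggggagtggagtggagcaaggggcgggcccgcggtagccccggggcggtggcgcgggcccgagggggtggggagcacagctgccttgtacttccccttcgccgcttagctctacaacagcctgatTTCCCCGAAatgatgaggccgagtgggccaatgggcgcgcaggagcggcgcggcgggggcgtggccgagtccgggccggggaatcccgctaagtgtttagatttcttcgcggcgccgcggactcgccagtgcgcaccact
Position was shared too. The windows of Gbp2, Gbp3, Gbp5 and Gbp7 lay together on chromosome 3, between 142496684 and 142620712, and those of Ifit1, Ifit2 and Ifit3 on chromosome 19, between 34550444 and 34640938.

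The tumor held the most RNA of nearly all members. In 37 of the 39 genes the tumor library was the highest of the 4, against 31.0% of all genes that averaged 1 CPM or more. The 8 members that passed through the tumor alone had to be highest there, and of the other 31, with at least 1 CPM in a culture, the tumor was highest in 29, beside 26.3% of the 11916 such genes. The exceptions were Rsad2, highest in 2D monoculture, and Ifi27, highest in the spheroid. The lowest library was the 2D co-culture for 19 genes, 2D monoculture for 10 and the spheroid for 10. The shares of all genes lowest in each library were not computed. Some of these orders rest on few reads, such as 0 for Gbp4 in 2D monoculture and 1 for Gbp5 in the spheroid. The summed level of the 39 genes was 475 CPM in 2D monoculture, 268 in 2D co-culture, 611 in the spheroid and 2082 in the tumor, and the median level was 5.37, 1.66, 2.76 and 40.1 CPM. In the spheroid, Ifi27 and Bst2 alone held 262 and 119.8 CPM of the sum, and the median was under that of 2D monoculture.

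**Figure D1:**
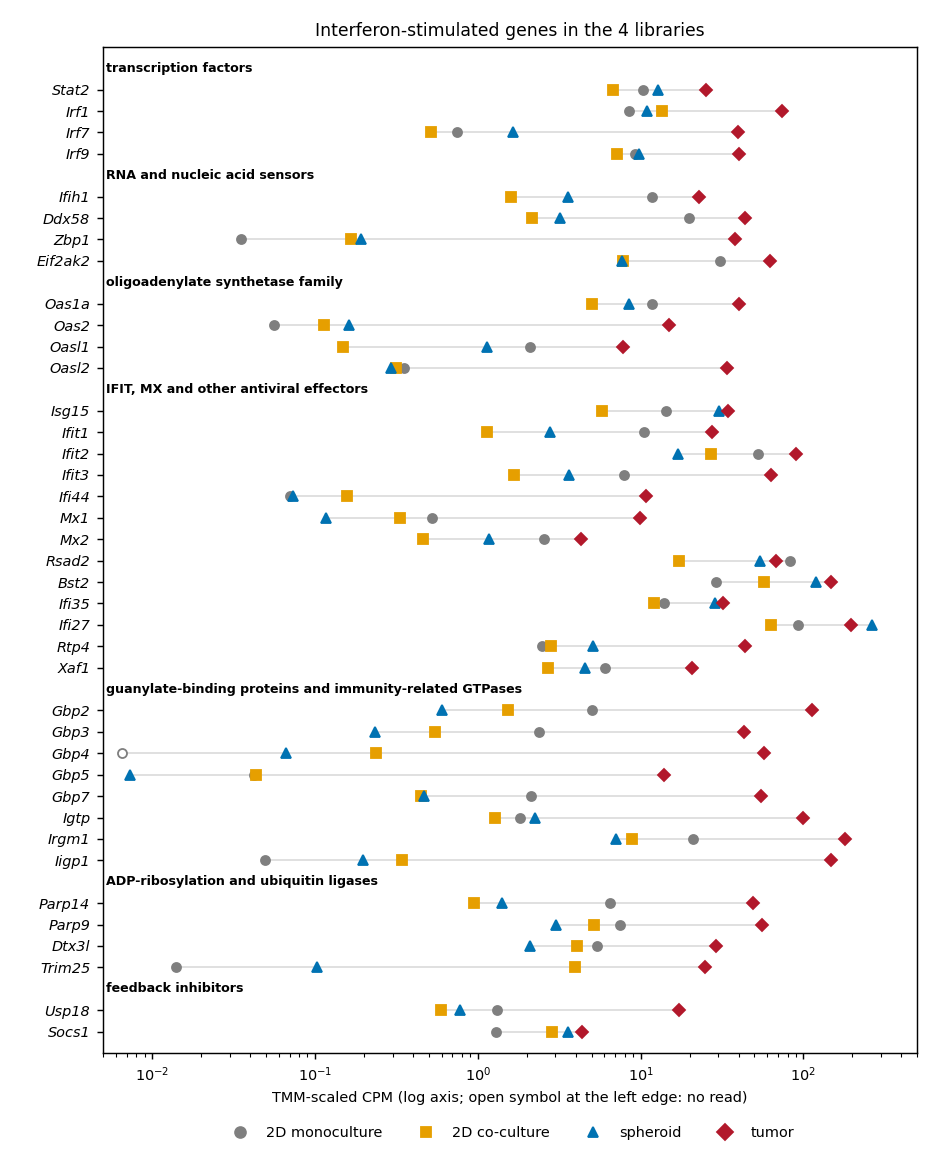
Level of each of the 39 interferon-stimulated genes in the 4 libraries, in TMM-scaled CPM on a log axis, grouped by role, with 1 symbol per library and no error bars because each condition has 1 library. The tumor symbol lies farthest to the right for 37 genes, 8 of which were under 1 CPM in every culture.

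Among cultures, the members lay lower in 2D co-culture than in 2D monoculture. Ratios over the list are log2 ratios with 1 CPM added to both values, and a gene was counted when it differed by more than 2-fold on that scale. From 2D monoculture to 2D co-culture, 15 of the 39 were lower, against 9.51% of all genes, and 1 was higher, Trim25, against 3.79%. The median log2 ratio of the members was -0.54, beside 0.01 over all genes. Between spheroid and 2D monoculture, 12 members were lower in the spheroid, against 17.9% of all genes, and 3 were higher, Bst2, Ifi27 and Isg15, against 11.2%, with a median of -0.33 beside 0.05. The spheroid exceeded the 2D co-culture in 5 members, Isg15, Ifi27, Rsad2, Ifi35 and Bst2, against 9.54% of all genes, and was lower in 1, Trim25, against 8.46%, with a median of 0.25 beside -0.01. Ratios between these libraries varied with the base composition of the genes, as shown further below, so each ratio was also computed with the median of genes of like GC content and length removed and is then called corrected. Corrected ratios, also those of single genes, always have 1 CPM added. Of the 12 members lower in the spheroid than in 2D monoculture, 7 were still more than 2-fold lower once corrected, and the other 5 were Ifih1, Ifit2, Gbp7, Parp9 and Dtx3l. Among all genes with a known GC content, 1221 of 2227 kept that call. Of the 5 higher in the spheroid than in 2D co-culture, 3 kept the call, without Bst2 and Ifi35, beside 748 of 1194 such genes. The members thus kept these calls about as often as other genes.

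Against each culture, most members were more than 2-fold higher in the tumor and none was more than 2-fold lower. Relative to 2D monoculture 34 were higher, against 14.8% of all genes, with a median log2 ratio of 2.74 beside -0.14. Relative to 2D co-culture 38 were higher, against 20.9%, with a median of 3.20 beside -0.11, and relative to the spheroid 32 were higher, against 27.6%, with a median of 3.28 beside -0.08. The shares of all genes lower in the tumor were 18.2%, 18.8% and 26.8%, in the same order. Once corrected, 31, 39 and 34 members were higher in the tumor, beside 2013, 2392 and 2740 of the 12466 genes with a known GC content. Isg15, Ifit1 and Ifi27 were the 3 members no longer past 2-fold against 2D monoculture. The 8 genes that passed through the tumor alone had to be higher there. Among the 31 others, 26, 30 and 24 were higher, beside 9.08%, 15.6% and 22.8% of the 11916 genes with at least 1 CPM in a culture. Without the 8 genes, the median log2 ratios were smaller, at 2.02, 2.84 and 2.85, beside -0.22, -0.20 and -0.19 over the 11916 genes. These comparisons share the tumor library, as the comparisons among cultures share culture libraries, so they are not separate evidence. The tumor library also held RNA of myeloid, endothelial, fibroblast and muscle cells, with values given below, and their part in these ratios was not tested.

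**Figure D2:**
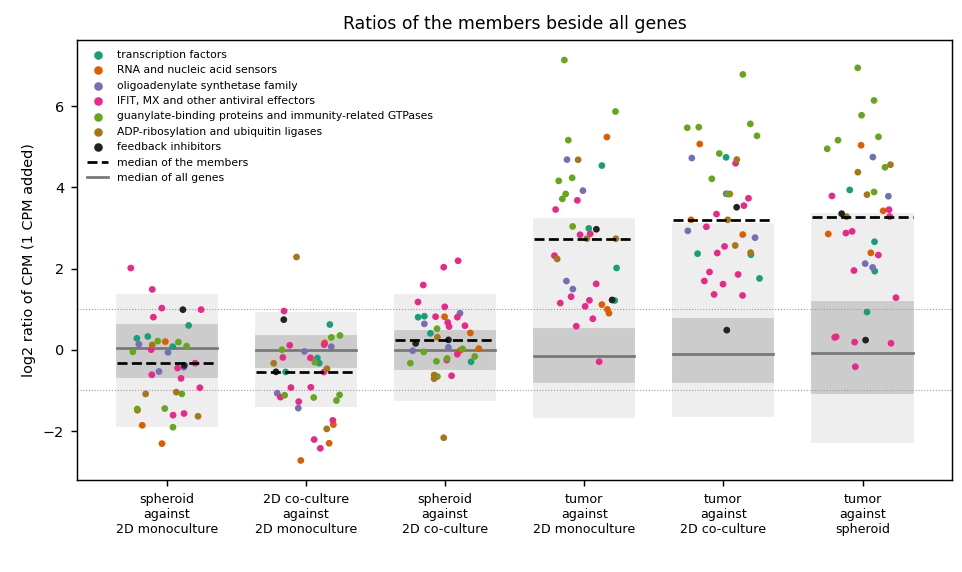
Log2 ratio of CPM, with 1 CPM added, of each member in each of the 6 comparisons, 1 point per gene and colored by role. Gray boxes span the middle 50% (dark) and middle 90% (light) of all 12728 genes, solid and dashed lines are the medians of all genes and of members, and dotted lines mark 2-fold; the dashed line is far above the solid line in the 3 comparisons with the tumor and under it in both comparisons with 2D monoculture.

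Interferons themselves were barely read. Of 21 ligand genes, 13 had no read in any library and 17 had at most 3 reads in each. Ifng, which encodes interferon gamma, had 0, 2, 0 and 63 reads in 2D monoculture, 2D co-culture, spheroid and tumor, or 0.388 CPM in the tumor. Ifnb1, the gene of interferon beta, had 0, 0, 2 and 10 reads, and Ifnab, of the interferon alpha group, 0, 2, 3 and 5. Ifnz, of the zeta group, ran the other way with 53, 29, 62 and 19 reads. The interferon alpha genes are near copies of each other, so reads that fit several of them may not have been counted. A ligand that was not read in these libraries was not detectable at this depth.

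All 9 receptor and kinase genes were expressed in the cultures, at 1.20 CPM or more. Ifnar1, a subunit of the type I receptor, had 69.3 CPM in 2D monoculture, 74.2 in 2D co-culture, 50.7 in the spheroid and 77.6 in the tumor, and its partner Ifnar2 had 40.7, 49.6, 72.3 and 48.7 CPM in 2D monoculture, 2D co-culture, spheroid and tumor. The subunits of the gamma receptor were Ifngr1, with 15.9 CPM in 2D monoculture, 24.7 in 2D co-culture, 27.9 in the spheroid and 51.4 in the tumor, and Ifngr2, with 72.4, 86.1, 124 and 85.2 CPM in 2D monoculture, 2D co-culture, spheroid and tumor. Receptors for type I and gamma interferon thus differed by at most 3.22-fold between libraries, the spread of Ifngr1 from 2D monoculture to tumor. Ifnlr1, the specific subunit of the lambda receptor, was the one receptor gene lowest in the tumor, with 3.32, 1.197, 4.99 and 0.647 CPM in 2D monoculture, 2D co-culture, spheroid and tumor, although its corrected log2 ratio of tumor to 2D co-culture was 0.16, and its partner Il10rb had 62.2 CPM in 2D monoculture, 75.7 in 2D co-culture, 64.6 in the spheroid and 94.3 in the tumor.

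Jak1 and Jak2 differed by more than 2-fold between 2D monoculture and both other cultures. Jak1, which serves both receptor types, had 185 CPM in 2D monoculture, 45.8 in 2D co-culture, 34.7 in the spheroid and 129.7 in the tumor, a log2 ratio of spheroid to 2D monoculture of -2.41 (95% interval -2.46 to -2.37). Jak2, of the gamma receptor, had 24.1, 10.8, 9.36 and 46.5 CPM in 2D monoculture, 2D co-culture, spheroid and tumor. For Tyk2, of the type I receptor, the values were 58.6 CPM in 2D monoculture, 40.6 in 2D co-culture, 65.9 in the spheroid and 24.7 in the tumor. These orders depended on the correction. Once corrected, the log2 ratio of spheroid to 2D co-culture was 0.02 for Jak1 and 0.15 for Jak2, and Jak2 was no longer past 2-fold against 2D monoculture, at -0.78 in 2D co-culture and -0.47 in the spheroid. The tumor level of Tyk2, the lowest of the 4 as measured, turned to corrected log2 ratios of 0.37 to 2D co-culture and 0.17 to the spheroid. Over the 9 genes the tumor was more than 2-fold higher than 2D monoculture in 1 (11.1%), Ifngr1, against 14.8% of all genes. It was lower in 2 (22.2%), Ifnlr1 and Tyk2, against 18.2%, and neither was past 2-fold once corrected (-0.61 and -0.17).

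Of 14 genes that sense nucleic acid or relay that signal to interferon genes, 11 had at least 1 CPM in every culture. Tlr7, Tlr9 and Irf8, which are typical of immune cells, had at most 0.0808 CPM in any culture and 12.6, 2.83 and 24.3 CPM in the tumor. Ticam1, the adaptor of Toll-like receptor 3, was lowest in the tumor, with 87.7 CPM in 2D monoculture, 63.6 in 2D co-culture, 182 in the spheroid and 13.8 in the tumor, and Mavs, the adaptor of the RNA sensors, had 61.2, 49.6, 76.5 and 23.1 CPM in 2D monoculture, 2D co-culture, spheroid and tumor. These 2 of the 14 (14.3%) were more than 2-fold lower in the tumor than in 2D monoculture, against 18.2% of all genes. Once corrected, 1 gene of the list was. In the same comparison 5 (35.7%) were higher, Tlr7, Tlr9 and Irf8 among them, against 14.8%. Irf5, a transcription factor of the interferon genes, differed most among cultures, with 5.95 CPM in 2D monoculture, 1.23 in 2D co-culture, 22.3 in the spheroid and 15.6 in the tumor. The receptor gene Tlr3 was lowest in the spheroid, where its adaptor was highest, with 14.7, 7.49, 3.797 and 26.9 CPM in 2D monoculture, 2D co-culture, spheroid and tumor. Against 2D monoculture, 2 of the 14 (14.3%) were more than 2-fold higher in the spheroid, Irf5 and Ticam1, against 11.2% of all genes. Another 2 (14.3%) were lower, Tlr3 and Tbk1, against 17.9%. The call of Ticam1 ended with the correction, at a log2 ratio of 0.33.

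**Figure D3:**
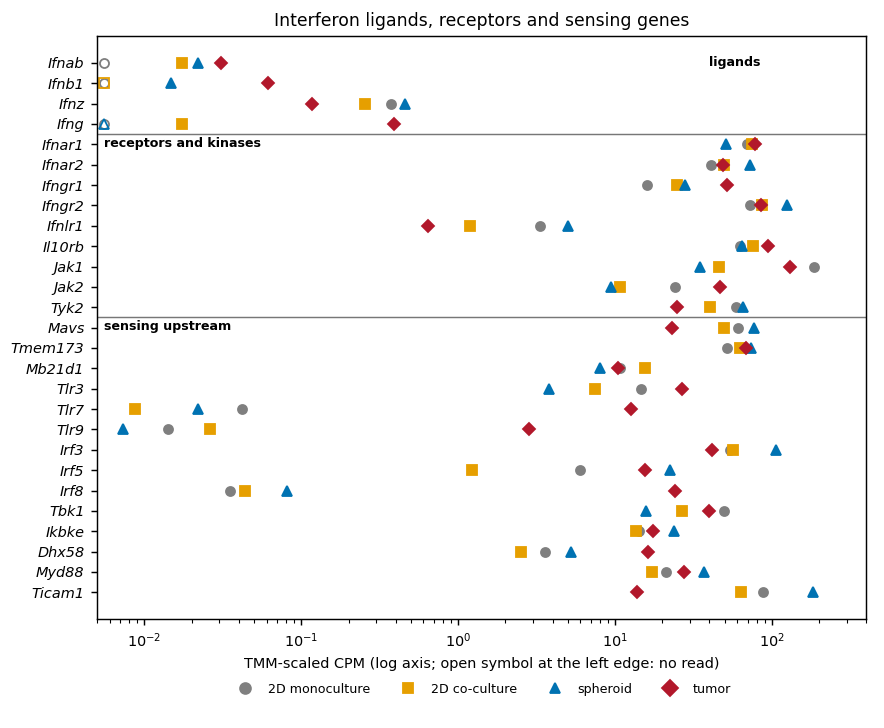
Level of the ligands with more than 3 reads in a library, of receptors and kinases, and of 14 sensing genes, in TMM-scaled CPM on a log axis, with 1 symbol per library and open symbols for no read. Ligands lie under 0.5 CPM in all libraries, whereas Ifnar1, Ifnar2, Ifngr1 and Ifngr2 lie between 15.9 and 124 CPM.

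Among the members, the 4 transcription factors were all highest in the tumor and none passed 2-fold between cultures with 1 CPM added. Stat2, a transcription factor of the type I pathway, had 10.3 CPM in 2D monoculture, 6.77 in 2D co-culture, 12.8 in the spheroid and 25.3 in the tumor. Irf9, which gives the complex it forms with STAT2 its DNA binding, had 9.22, 7.14, 9.796 and 40.4 CPM in 2D monoculture, 2D co-culture, spheroid and tumor. Both were lowest in 2D co-culture, and the log2 ratio of spheroid to 2D monoculture of Irf9, 0.09 (95% interval -0.02 to 0.20), had an interval that spans 0. Irf1, a target of interferon gamma, had 8.47 CPM in 2D monoculture, 13.6 in 2D co-culture, 10.9 in the spheroid and 74.3 in the tumor, with a log2 ratio of tumor to 2D monoculture of 3.13 (95% interval 3.05 to 3.22). Irf7, which drives the second wave of interferon alpha genes, was the scarcest of the 4 in the cultures, with 0.744 CPM in 2D monoculture, 0.515 in 2D co-culture, 1.64 in the spheroid and 39.5 in the tumor. With nothing added, its spheroid level was 3.19 times that of 2D co-culture. Per kilobase of the merged exons of a gene, Irf7 reached 16.5 CPM in the tumor, beside 22.3 for Irf1, whereas in 2D monoculture the values were 0.311 and 2.54.

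Of the 4 sensors, 3 were lower in both cultures with fibroblasts (2D co-culture and spheroid) than in 2D monoculture by more than 2-fold, although Ifih1 in the spheroid had a corrected log2 ratio of -0.58. Ddx58, which encodes RIG-I, a sensor of RNA with a triphosphate end, had 19.8 CPM in 2D monoculture, 2.14 in 2D co-culture, 3.19 in the spheroid and 43.9 in the tumor. Its log2 ratio to 2D monoculture was -3.21 (95% interval -3.40 to -3.02) in 2D co-culture and -2.63 (-2.78 to -2.49) in the spheroid. Ifih1, which encodes the long double-stranded RNA sensor MDA5, had 11.8, 1.598, 3.57 and 22.9 CPM in 2D monoculture, 2D co-culture, spheroid and tumor, and Eif2ak2, the gene of the RNA-dependent kinase PKR, had 30.7 CPM in 2D monoculture, 7.83 in 2D co-culture, 7.74 in the spheroid and 62.2 in the tumor. For Eif2ak2 the spheroid and 2D co-culture differed by a log2 ratio of -0.02 (-0.15 to 0.11), an interval that spans 0, and both were close to 4-fold under 2D monoculture (3.97-fold and 3.92-fold). Zbp1, a sensor of Z-form nucleic acid linked to cell death, stood apart from these 3 genes with 0.0351 CPM in 2D monoculture, 0.166 in 2D co-culture, 0.191 in the spheroid and 38.2 in the tumor. Under 1 CPM in every culture, Zbp1 had to be higher in the tumor, where its level was 229.9 times that of 2D co-culture. For Ddx58, Ifih1 and Eif2ak2 the tumor was 2.22, 1.94 and 2.03 times 2D monoculture, which was nearer to the tumor than either culture with fibroblasts was.

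Oligoadenylate synthetases make a small messenger that turns on RNA decay by RNase L. Oas1a had 11.7 CPM in 2D monoculture, 5.06 in 2D co-culture, 8.44 in the spheroid and 40.1 in the tumor, which is an uncertain value because near copies such as Oas1g can share its reads. Oasl1, a family member without the enzyme activity that restrains Irf7 translation, had 2.11, 0.148, 1.15 and 7.76 CPM in 2D monoculture, 2D co-culture, spheroid and tumor. Both were lowest in 2D co-culture, Oasl1 14.2-fold under 2D monoculture on 17 reads against 300. Oas2 had 0.0562 CPM in 2D monoculture, 0.114 in 2D co-culture, 0.162 in the spheroid and 15.00 in the tumor, and Oasl2 had 0.351, 0.314, 0.294 and 33.8 CPM in 2D monoculture, 2D co-culture, spheroid and tumor. Thus 2 of the 4 family members, Oas1a and Oasl1, reached 1 CPM in a culture, and both were higher in the tumor. Oas2 and Oasl2 did not reach it and so had to be higher in the tumor. The intervals of the ratios between cultures of Oasl2 all spanned 0, with a log2 ratio of spheroid to 2D monoculture of -0.26 (-0.89 to 0.37).

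The IFIT proteins bind viral RNA and block its translation. Ifit1 had 10.5 CPM in 2D monoculture, 1.14 in 2D co-culture, 2.76 in the spheroid and 27.4 in the tumor, Ifit2 had 52.5, 27.1, 17.04 and 90.01 CPM in 2D monoculture, 2D co-culture, spheroid and tumor, and Ifit3, which pairs with IFIT1, had 7.87 CPM in 2D monoculture, 1.66 in 2D co-culture, 3.64 in the spheroid and 63.3 in the tumor. All 3 were lower in both cultures with fibroblasts than in 2D monoculture and higher in the tumor. Ifit1 and Ifit3 were lowest in 2D co-culture, at log2 ratios to 2D monoculture of -3.21 (95% interval -3.48 to -2.95) and -2.25 (-2.47 to -2.02), whereas Ifit2 was lowest in the spheroid, at -1.62 (-1.69 to -1.56), and -0.81 once corrected. Per kilobase, Ifit2 was the highest of the 3 in each culture, with 13.8 CPM in 2D monoculture, 7.096 in 2D co-culture and 4.46 in the spheroid, and Ifit3 in the tumor, with 36.3 CPM beside 23.6 for Ifit2. Ifit3b and Ifit1bl1 are close relatives of Ifit3 and Ifit1, and reads that fit both copies make these levels uncertain.

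Spheroid and tumor were less than 2-fold apart in 7 of the 39 members, and in 5798 of all 12728 genes. The 7 were Stat2, Socs1, Rsad2, Isg15, Ifi27, Bst2 and Ifi35. Rsad2 was lower in the spheroid than in 2D monoculture, whereas Isg15, Ifi27, Bst2 and Ifi35 were higher. Corrected log2 ratios of tumor to spheroid were -0.33 for Rsad2, 0.41 for Isg15, -0.20 for Ifi27, 0.73 for Bst2 and 0.82 for Ifi35. Those of Stat2 and Socs1 were past 2-fold, at 1.63 and 1.98. Rsad2, which encodes the antiviral enzyme viperin, had 83.2 CPM in 2D monoculture, 17.2 in 2D co-culture, 54.02 in the spheroid and 67.7 in the tumor. It was the member in which 2D monoculture exceeded the tumor, at a log2 ratio of tumor to 2D monoculture of -0.30 (95% interval -0.33 to -0.26), and its low point was the 2D co-culture, 4.84-fold under 2D monoculture. Its log2 ratio of tumor to spheroid was 0.33 (0.28 to 0.37), of the other sign than the corrected one. Isg15, a small protein that is joined to others like ubiquitin, had 14.3, 5.83, 30.2 and 34.6 CPM in 2D monoculture, 2D co-culture, spheroid and tumor. The spheroid lay close to the tumor for Isg15, with a log2 ratio of tumor to spheroid of 0.20 (95% interval 0.14 to 0.26), and 5.19-fold above the 2D co-culture. Bst2, which encodes tetherin, a protein that holds budding virus at the cell surface, had 28.9 CPM in 2D monoculture, 56.96 in 2D co-culture, 119.8 in the spheroid and 148 in the tumor. Among cultures Bst2 was lowest in 2D monoculture and highest in the spheroid, with the tumor at a log2 ratio of 0.31 (0.28 to 0.34) to the spheroid.

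Ifi27, a small mitochondrial protein gene, had 92.8 CPM in 2D monoculture, 63.2 in 2D co-culture, 262 in the spheroid and 196 in the tumor, so that the spheroid was above the tumor, at a log2 ratio of tumor to spheroid of -0.42 (-0.44 to -0.40). Ifi35, whose product forms complexes with NMI, had 13.9, 12.04, 28.5 and 32.01 CPM in 2D monoculture, 2D co-culture, spheroid and tumor, and its tumor level was 1.12 times the level in the spheroid. Per kilobase Ifi27, Bst2 and Isg15 were the leading members in the spheroid, with 256 CPM for Ifi27, 151 for Bst2 and 39.97 for Isg15. The 3 genes are also short, with merged exons of 1.02, 0.792 and 0.756 kb.

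The MX proteins are antiviral GTPases, and many laboratory mouse strains carry defective Mx genes. Mx1 had 0.526 CPM in 2D monoculture, 0.332 in 2D co-culture, 0.117 in the spheroid and 9.89 in the tumor, and Mx2 had 2.54, 0.463, 1.17 and 4.299 CPM in 2D monoculture, 2D co-culture, spheroid and tumor. Mx1 was lowest in the spheroid, on 16 reads, and Mx2 in 2D co-culture, on 53 reads, and Mx2 in the tumor was 1.69 times the level in 2D monoculture. Ifi44, a gene of little known function, had 0.0702 CPM in 2D monoculture, 0.157 in 2D co-culture, 0.0734 in the spheroid and 10.7 in the tumor, and its culture levels rested on at most 18 reads. Rtp4, which encodes a chaperone of receptors, had 2.48, 2.81, 5.09 and 43.7 CPM in 2D monoculture, 2D co-culture, spheroid and tumor, and Xaf1, a gene linked to cell death, had 6.01 CPM in 2D monoculture, 2.699 in 2D co-culture, 4.58 in the spheroid and 20.6 in the tumor. Rtp4 was thus higher in the spheroid than in either 2D culture, by 1.03 (0.85 to 1.22) on the log2 scale from 2D monoculture, and Xaf1 was lowest in 2D co-culture.

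The guanylate-binding proteins and immunity-related GTPases, which attack the vacuoles of intracellular pathogens and are classic targets of interferon gamma, lay far above the cultures in the tumor. Gbp4, Gbp5 and Iigp1 were under 1 CPM in every culture and so had to be higher there. The other 5 were all more than 2-fold higher in the tumor than in each culture, with a median log2 ratio of 4.16 to 2D monoculture, 5.27 to 2D co-culture and 5.16 to the spheroid. Gbp2 had 5.005 CPM in 2D monoculture, 1.53 in 2D co-culture, 0.602 in the spheroid and 112 in the tumor, Gbp3 had 2.37, 0.5503, 0.235 and 43.3 CPM in 2D monoculture, 2D co-culture, spheroid and tumor, and Gbp7 had 2.12 CPM in 2D monoculture, 0.445 in 2D co-culture, 0.4700 in the spheroid and 54.8 in the tumor. These 3 genes were more than 2-fold lower in both cultures with fibroblasts than in 2D monoculture, but Gbp7 was not once corrected, with log2 ratios of -0.56 in 2D co-culture and -0.18 in the spheroid. Gbp2 and Gbp3 were lowest in the spheroid, at log2 ratios to 2D monoculture of -3.06 (95% interval -3.40 to -2.72) and -3.33 (-3.90 to -2.81). Gbp4 had 0, 0.236, 0.0661 and 57.5 CPM in 2D monoculture, 2D co-culture, spheroid and tumor. With no read in 2D monoculture, Gbp4 was at least 2731-fold higher in the tumor, a bound against 3 reads in that library. Gbp5 had 0.0421 CPM in 2D monoculture, 0.0437 in 2D co-culture, 0.00734 in the spheroid and 13.9 in the tumor, which in the spheroid was 1 read, so that its log2 ratio of tumor to spheroid was 10.89 (8.41 to 16.19). The Gbp genes are near copies of each other, and reads that fit several may have been left out or split.

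Irgm1, a regulator of the other immunity-related GTPases, was per kilobase the highest of the 8 in every library. It had 21.1 CPM in 2D monoculture, 8.795 in 2D co-culture, 7.05 in the spheroid and 181 in the tumor, and 78.4 CPM per kilobase in the tumor. Igtp, also known as Irgm3, had 1.81, 1.28, 2.26 and 99.9 CPM in 2D monoculture, 2D co-culture, spheroid and tumor, and its cultures differed by at most 1.77-fold. Iigp1, also known as Irga6, had 0.0491 CPM in 2D monoculture, 0.341 in 2D co-culture, 0.198 in the spheroid and 147 in the tumor, a log2 ratio of tumor to 2D co-culture of 8.75 (95% interval 8.30 to 9.24). Its level in 2D monoculture rested on 7 reads, in 2D co-culture on 39 and in the spheroid on 27.

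Parp14 and Parp9 attach ADP-ribose to proteins, and Dtx3l and Trim25 are ubiquitin ligases, Dtx3l as the partner of PARP9 and Trim25 in the RIG-I pathway. Parp14 had 6.49 CPM in 2D monoculture, 0.943 in 2D co-culture, 1.41 in the spheroid and 49.04 in the tumor, Parp9 had 7.496, 5.15, 3.004 and 55.6 CPM in 2D monoculture, 2D co-culture, spheroid and tumor, and Dtx3l had 5.37 CPM in 2D monoculture, 4.06 in 2D co-culture, 2.09 in the spheroid and 29.1 in the tumor. The partners Parp9 and Dtx3l were ordered alike in the 3 cultures, with 2D monoculture highest and the spheroid lowest, and their log2 ratios of spheroid to 2D monoculture were -1.32 (95% interval -1.49 to -1.15) and -1.36 (-1.56 to -1.16). With 1 CPM added these were -1.09 and -1.04, and once corrected -0.54 and -0.50. Of the 4 genes, Parp14 alone was then still more than 2-fold lower in the spheroid. Trim25 had 0.01404 CPM in 2D monoculture, 3.95 in 2D co-culture, 0.103 in the spheroid and 25.03 in the tumor. It was the one member counted as higher in 2D co-culture than in 2D monoculture, with 452 reads against 2 in 2D monoculture and 14 in the spheroid, a log2 ratio of 8.14 (6.27 to 11.19). Of 9 fibroblast markers, 5 were also more than 2-fold higher in 2D co-culture than in 2D monoculture, against 3.79% of all genes, and the other 4 were within 2-fold. The summed level of the 9 was 17.6 CPM in 2D monoculture, 679 in 2D co-culture, 36.5 in the spheroid and 2728 in the tumor, led by Col3a1, Col1a2 and Col1a1. Col1a2 alone, which made up most of the sum in 2D co-culture, had 2.97 CPM in 2D monoculture, 514 in 2D co-culture, 4.05 in the spheroid and 622 in the tumor. None of the 9 was at 0 in any library, and 7 reached 1 CPM in 2D co-culture, against 3 in 2D monoculture and 4 in the spheroid. Whether NIH/3T3 RNA gave the Trim25 reads was not tested.

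Usp18 and Socs1 close the loop, Usp18 by removing ISG15 from proteins and blocking IFNAR2, and Socs1 by inhibiting JAK kinases. Usp18 had 1.32 CPM in 2D monoculture, 0.594 in 2D co-culture, 0.778 in the spheroid and 17.2 in the tumor, and Socs1 had 1.299, 2.85, 3.56 and 4.39 CPM in 2D monoculture, 2D co-culture, spheroid and tumor. The inhibitors differed in course. Usp18 was highest in 2D monoculture among cultures, whereas Socs1 was lowest there, with a log2 ratio to 2D monoculture of 1.13 (0.87 to 1.40) in 2D co-culture and 1.46 (1.21 to 1.71) in the spheroid. Tumor and spheroid were 22.1-fold apart for Usp18 and 1.23-fold for Socs1. Both ratios of Socs1 with the spheroid depended on the correction. With 1 CPM added, its log2 ratio of tumor to spheroid went from 0.24 to 1.98 once corrected. That of spheroid to 2D monoculture went from 0.99 to 0.22.

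Ratios between cultures varied with base composition, and among members with a promoter window their medians differed between those with and without an ISRE core. Over the 39 members, Spearman's correlation of the log2 ratio of spheroid to 2D monoculture with the GC content of the longest transcript was 0.65, beside 0.46 over 12466 genes with a known GC content. The points share their 2 libraries, and no p is given. The 3 members higher in the spheroid had 52.4% to 55.3% GC and a median length of merged exons of 0.792 kb, and the 12 lower ones 41.7% to 47.5% GC and 3.85 kb. For 2D co-culture against 2D monoculture the correlation was 0.31 over the members and 0.20 over all genes. Once corrected, Bst2 was the one member still more than 2-fold higher in the spheroid than in 2D monoculture (log2 ratio 1.36), with 0.84 for Ifi27 and 0.38 for Isg15. Lower were 9 members, 7 of them among the 12. Over the 12466 genes, 1118 were higher and 1428 lower once corrected, and 644 and 1221 of these had the call before it. Without the correction the count of 3 was also 5 with DESeq2 size factors and 9 with 0.1 CPM added. For 2D co-culture against 2D monoculture, 14 members were lower after the correction, all 14 among the 15, with a median of -0.45. Of the 12466 genes, 879 were lower after it, 806 of them among the 1178 lower before it.

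**Figure D4:**
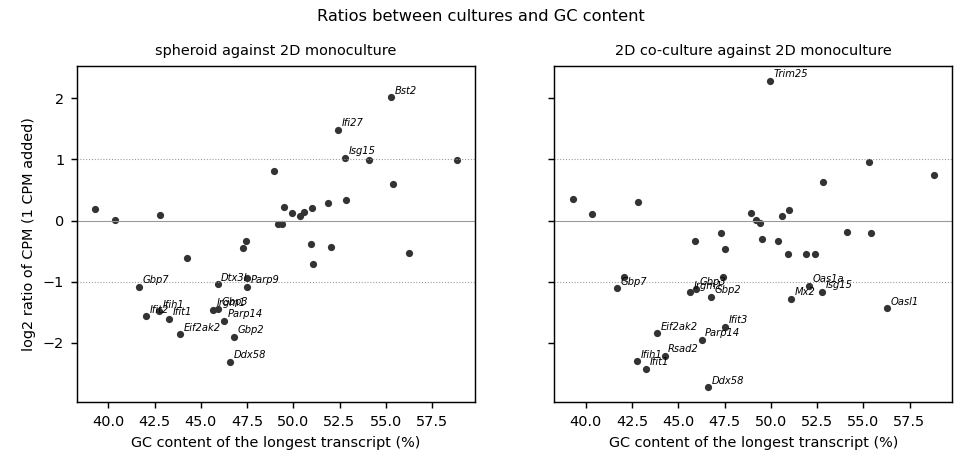
Log2 ratio of CPM (1 CPM added) of the 39 members against the GC content of the longest transcript in percent, for spheroid and for 2D co-culture against 2D monoculture, with 1 point per gene, dotted lines at 2-fold and names for genes past them. The 3 members higher in the spheroid lie at 52.4% GC or more and the 12 lower ones at 47.5% or less, while in 2D co-culture lower members span 41.7% to 56.3%.

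Split by the promoter windows above, the 17 members with an ISRE core had a median log2 ratio of 2D co-culture to 2D monoculture of -1.17, and 12 of them were lower. The 11 with a window and no ISRE core had a median of -0.20, and 1 was lower, Oasl1. With 1 CPM added, a gene under 1 CPM in 2D monoculture cannot be counted as lower, which was the case for 1 gene with the core and 4 without it. Over the others, 12 of 16 with the core and 1 of 7 without it were lower, with medians of -1.17 and -0.33. The share of all genes that were lower was 9.51%. Between spheroid and 2D monoculture the medians over these 16 and 7 genes were -1.01, with 8 lower and 2 higher, and -0.33, with 2 lower. Of all genes, 17.9% were lower and 11.2% higher in that comparison. Against the tumor the order of the medians was not the same in each comparison. For the same 16 and 7 genes, the median log2 ratio of the tumor was 1.502 with the core and 1.63 without it to 2D monoculture, 3.47 and 2.37 to 2D co-culture, and 2.89 and 2.03 to the spheroid. These medians describe the genes of the list, and no test of the split was made. Ratios of other genes with an ISRE core were not computed. The ratios in the split are uncorrected, and members without a window, Parp14 and Mx2 among them, are left out.

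The levels of the 8 members under 1 CPM in every culture were also set beside those of genes that B16F10 cells are not known to express. Their culture levels came to between 0 and 5.32% of the tumor level. For Iigp1 the shares were 0.0335% in 2D monoculture, 0.232% in 2D co-culture and 0.135% in the spheroid. The 5 skeletal muscle markers, led by Acta1, Myh4 and Tnnt3, had a summed level of 4599 CPM in the tumor and between 3.28 and 12.4 CPM in the cultures, and their median shares of the tumor level were 0.0294%, 0.195% and 0.1301% in the same order. Gbp4 had shares of 0.4100% in 2D co-culture and 0.115% in the spheroid, and Oasl2 of 1.04%, 0.931% and 0.8701% in the 3 cultures. Zbp1, Gbp4, Gbp5 and Iigp1 were thus at or under the highest share of a muscle marker in each culture, and whether reads of the tumor library reached the culture libraries was not tested.

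**Figure D5:**
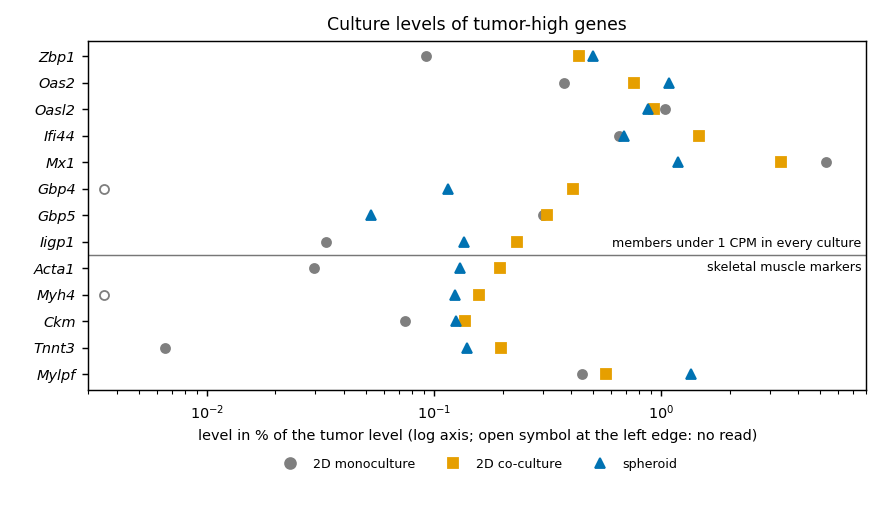
Level in each culture in percent of the level in the tumor, on a log axis, for the 8 members under 1 CPM in every culture and for 5 skeletal muscle markers, with open symbols for no read. In each culture the symbols of Zbp1, Gbp4, Gbp5 and Iigp1 lie no farther right than the rightmost muscle marker, while those of Mx1 lie up to 5.32%.

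The tumor library also held RNA of other cell types. The 12 myeloid markers summed to 2168 CPM in the tumor and to between 10.8 and 29.99 CPM in the cultures, led by Lyz2, C1qb and C1qa. All 12 had at least 1 CPM in the tumor and 2, Cd68 and Lyz2, in each culture, and Cd14 was at 0 in 2D monoculture. The 10 endothelial markers, led by Egfl7, Pecam1 and Cdh5, summed to 349.9 CPM in the tumor and to between 27.8 and 78.7 CPM in the cultures, most of it Egfl7, with none at 0. T and NK cell markers were low even in the tumor, at 9.74 CPM over 9 genes led by Gzmb, Cd4 and Nkg7, against 0.206 CPM or less in the cultures, where Ncr1 and Klrb1c were at 0 in each. The 4 B cell markers, led by Cd79a and Cd79b, summed to 2.93 CPM in the tumor and to 0.815 CPM or less in the cultures, where Ms4a1 was at 0 in each. Of 7 genes used to mark plasmacytoid dendritic cells, Bst2 and Tcf4 were expressed in the cultures, Irf8 reached 24.3 CPM in the tumor, the other 4 were under 1 CPM in all libraries, and Siglech was at 0 in each culture. In such a bulk library, fewer cells of a type and less RNA per cell cannot be told apart.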

How the data were processed

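RNA was taken from B16F10 cells of 3 cultures and from tumor, 1 library each. The authors deposited read counts per gene, whole numbers without normalization, and the processing notes of the submitters name Trimmomatic, STAR, featureCounts and build mm10. Counting settings, strand use among them, were not stated in these sources. CPM values were computed with TMM factors (edgeR 4.0.16, R 4.3.3), with size factors of DESeq2 1.42.0 and total counts as alternatives. Genes that averaged 1 CPM or more were kept. Lists were described by counts past 2-fold and by medians, with 1 CPM added (0.1 CPM as an alternative). Single ratios have none added, except corrected ones and where said. The exact binomial 95% intervals (scipy 1.17.1) belong to ratios with none added and cover counting error, since PCR copies are not independent molecules. Steps were tested on simulated data. GC content was that of the longest GENCODE transcript and length that of the merged exons of the gene, in the same build, for 97.9% of genes and all members. The correction removed the median of 10 by 10 classes. The 39 genes and the lists (21 ligands, 9 receptor and kinase genes, 14 sensing genes, 45 further interferon-stimulated genes, and melanocyte, myeloid, plasmacytoid dendritic cell, T and NK cell, B cell, endothelial, fibroblast and skeletal muscle markers) were chosen with earlier results of these data known. Named are all 39, ligands with over 3 reads, all receptor and kinase genes, and the 3 of highest mean in each further or marker list, plus genes named beside a count or said to be chosen after their values were seen. From the receptor and kinase list 1 further gene is not reported here.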

Additional observations from a re-analysis of the deposited data

How the results depend on the processing

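Each median and each count of members past 2-fold was recomputed with total counts, DESeq2 size factors, 0.1 CPM added, no filter on low values, and removal of the GC and length trend, and the comparisons of cultures also with TMM factors of the cultures alone, a setting chosen after seeing the data. Of 99 such values, 92 were called the same, 7 moved and 0 reversed. A median was called the same if its ratio shifted by at most 1.5-fold. For the small medians between cultures this would allow a change of sign, although none changed sign. A count was called the same if it changed by at most 1.5 times, and a count could not be called reversed. Members higher in the spheroid than in 2D monoculture numbered 5 with DESeq2 size factors, 9 with 0.1 CPM added and 1 after the GC and length correction, in place of 3. With 0.1 CPM added, which by construction lets genes of few reads pass 2-fold, those higher in 2D co-culture than in 2D monoculture numbered 4 in place of 1, those higher in the spheroid than in 2D co-culture 11 in place of 5, those lower 3 in place of 1, and the members' median for tumor against 2D co-culture was 4.30 in place of 3.20. For the other settings the cause was not tested. Total counts moved the median of all genes by 0.22, 0.25 and 0.33 on the log2 scale in the comparisons of the tumor with 2D monoculture, 2D co-culture and spheroid, and the GC and length correction moved it by up to 0.14. Leaving out a filter changed nothing, since all 39 members pass it. No paired analysis was possible because a condition has a single library, and leaving out a library would remove its condition. Members with few reads in a culture, such as Gbp5, Trim25, Zbp1 and Ifi44, have wide intervals, and no replicate spread was available for any value.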

Other observations

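A further list of 45 genes known to respond to interferon, beyond the 39, was read in the same libraries. The tumor was the highest library for 37 of the 45, against 31.0% of all genes that averaged 1 CPM or more. However, 19 of the 45 were under 1 CPM in every culture and could reach a mean of 1 CPM through the tumor alone. Among the 26 with at least 1 CPM in a culture, 15 were more than 2-fold higher in the tumor than in 2D monoculture, beside 9.08% of the 11916 genes with at least 1 CPM in a culture, with a median log2 ratio of 1.41 beside -0.22. Pml and Adar were more than 2-fold lower, but not with the GC and length trend removed, at log2 ratios of -0.21 and -0.35. The members of highest mean level were Ifitm2, Ifitm3 and Lgals3bp. Ifitm3, which encodes a membrane protein that blocks virus entry, had 39.1 CPM in 2D monoculture, 55.3 in 2D co-culture, 148 in the spheroid and 263 in the tumor, whereas Ifitm2, its neighbor in the family, had 134, 186, 211 and 197 CPM in 2D monoculture, 2D co-culture, spheroid and tumor. Lgals3bp, a secreted glycoprotein, had 82.6 CPM in 2D monoculture, 92.3 in 2D co-culture, 178 in the spheroid and 146 in the tumor and was highest in the spheroid as measured, but its log2 ratio of tumor to spheroid turned positive once the GC and length trend was removed.

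The following genes were chosen after their values were seen. Tgtp2, an immunity-related GTPase, had 0.0211 CPM in 2D monoculture, 0.507 in 2D co-culture, 0.162 in the spheroid and 270.4 in the tumor, and its near copy Tgtp1 had 0.00702, 0.542, 0.154 and 224 CPM in 2D monoculture, 2D co-culture, spheroid and tumor, so that reads that fit both copies make each value uncertain. Ly6e, a surface protein gene, resembled Trim25 in its order of cultures, with 0.0983 CPM in 2D monoculture, 7.26 in 2D co-culture, 0.235 in the spheroid and 165 in the tumor, and so did Apobec3, a DNA-editing restriction factor, with 0, 2.17, 0.0294 and 12.6 CPM in 2D monoculture, 2D co-culture, spheroid and tumor. Cxcl10, a chemokine that draws T cells, was expressed in all cultures, with 29.6 CPM in 2D monoculture, 21.8 in 2D co-culture, 76.9 in the spheroid and 86.9 in the tumor, whereas Cxcl9, its relative that depends on interferon gamma, had 0.01404, 0.105, 0.0808 and 66.2 CPM in 2D monoculture, 2D co-culture, spheroid and tumor. Between cultures, 2D co-culture exceeded 2D monoculture by more than 2-fold in 3 of the 45 (6.67%), Ly6e, Apobec3 and Ifi47, against 3.79% of all genes. It was lower in 2 (4.44%), Ifit3b and Isg20, against 9.51%.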
